A study of Mus musculus with 4 samples.

Results

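The 10 neuronal marker genes Tubb3, Stmn2, Snap25, Nefl, Nefm, Map2, Rbfox3, Dcx, Syt1 and Gad1 were followed through cultures of 1° mouse OGCs that had been differentiated for 3 days (3ddiff). They were chosen by symbol, as genes by which remaining neurons in a glial culture can be judged, and each of the 10 symbols has 1 entry among the 53465 genes listed in every library. The genotypes ctrl and Zfp276cko were compared by RNA-Seq with 2 libraries each. The ctrl cells came from Zfp276 flox/flox mice, and the Zfp276cko cells came from Zfp276 flox/flox mice with a Sox10::Cre transgene, a BAC transgene that drives Cre in the oligodendroglial lineage, beginning with OPCs. Both groups share the floxed allele, and the mice used for culture additionally carried a Rosa26 stopflox tdTomato reporter allele on a mixed C3H and C57Bl/6J background. Each library is a separate preparation, pooled from the forebrains of 3 early postnatal mice (both sexes were used), in which OGCs were shaken off mixed glial cultures and depleted of microglia.

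Neurons are set apart from glia by a stabilised microtubule and neurofilament cytoskeleton, by the machinery that releases synaptic vesicles and by enzymes that make their transmitter. A panel of markers therefore samples several stages: Dcx appears in migrating neuroblasts, Tubb3 and Stmn2 in newborn neurons, Rbfox3 and neurofilaments in maturing neurons. Several of these genes are not strictly neuronal. Map2 and Dcx transcripts are also known from cells of the oligodendrocyte lineage, whereas Gad1, Snap25 and Syt1 belong to transmitter synthesis and release.

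The libraries held 21068322 to 26599809 counted reads. Of the targeted gene, Zfp276, the normalised read counts were 1648 and 2230 in ctrl against 489.5 and 502.6 in Zfp276cko cells, with both Zfp276cko libraries below both ctrl libraries (log2 fold change -1.97 ± 0.18 SE, adjusted p = 0.0962 by the quasi-likelihood test of edgeR). The edgeR test thus did not reach an adjusted p of 0.05 even for the deleted gene, whereas DESeq2 did (adjusted p = 1.17e-14 by DESeq2). The Zfp276cko libraries were close to each other, with 13 of 14324 genes at least 4-fold apart (0.0908%). The ctrl libraries were not. ctrl replicate 1 stood apart by its collagen transcripts, with 2124 counts of Col1a1 against 56 in ctrl replicate 2, 82 in Zfp276cko replicate 1 and 57 in Zfp276cko replicate 2. It stood apart by the neuronal markers as well, as described in the following. All values are given with the ctrl libraries side by side for this reason. A normalised read count is a count brought to a common effective library size, the mean over the 4 libraries, and means are given ± SD with n = 2 libraries.

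Gad1, Syt1, Snap25, Stmn2 and Rbfox3 separated the 2 ctrl preparations by the largest factors among the members. Gad1 makes the inhibitory transmitter GABA from glutamate. It lies on mm10 chromosome 2 from 70553072 to 70602014 on the plus strand. Its normalised read counts were 78.4 in ctrl replicate 1, 2002 in ctrl replicate 2, 920.2 in Zfp276cko replicate 1 and 1003 in Zfp276cko replicate 2. ctrl replicate 1 was lowest and ctrl replicate 2 highest, so that both Zfp276cko libraries fell between the ctrl libraries. The difference within ctrl was 25.6-fold and rested on 66 reads in ctrl replicate 1, with a 95% Poisson interval of 51.0 to 84.0 reads that covers counting error only. The Zfp276cko mean was 12.3-fold above ctrl replicate 1 and ctrl replicate 2 was 2.08-fold above the Zfp276cko mean.

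Syt1, the calcium sensor of synaptic vesicle release (chromosome 10, 108497650 to 109010982, minus strand), had the largest difference within ctrl among the members, 26.3-fold. Its normalised read counts were 33.2 and 874.4 in ctrl replicates 1 and 2. Both Zfp276cko libraries lay in between, with 342.0 in replicate 1 and 351.4 in replicate 2. The mean was 346.7 ± 6.62 in Zfp276cko cells and 453.8 ± 594.8 in ctrl cells. Snap25, a SNARE protein of the same release machinery (chromosome 2, 136713453 to 136782428, plus strand), reached normalised read counts of 35.6 and 483.9 in ctrl compared with 298.6 and 357.4 in Zfp276cko cells. Its ctrl libraries were 13.6-fold apart.

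Stmn2, a tubulin-binding protein of growing axons (chromosome 3, 8509360 to 8561606, plus strand), had normalised read counts of 26.1 and 390.5 in ctrl versus 306.7 and 302.4 in Zfp276cko cells. Rbfox3, the NeuN antigen and a splicing regulator of postmitotic neurons (chromosome 11, 118489762 to 118911597, minus strand), had 14.2 and 196.9 in ctrl against 105.9 and 110.0 in Zfp276cko cells. The same order held in both genes: ctrl replicate 1 at the bottom, the Zfp276cko libraries next to each other and ctrl replicate 2 on top. Only 12 reads of Rbfox3 were counted in ctrl replicate 1, with an interval of 6.20 to 20.96 reads, which stays far under the 117 reads counted in Zfp276cko replicate 1.

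**Figure D1:**
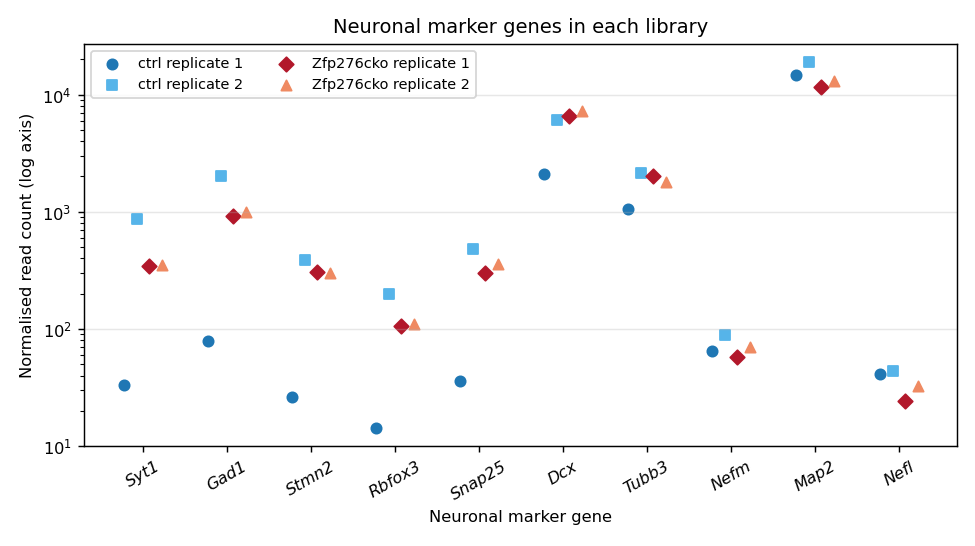
Normalised read count (log axis) of each of the 10 neuronal marker genes in the 4 libraries, 1 point per library, ordered by the ratio of ctrl replicate 2 to ctrl replicate 1. For Syt1, Gad1, Stmn2, Rbfox3 and Snap25 the point of ctrl replicate 1 lies 7.57-fold to 12.3-fold under the mean of the Zfp276cko libraries, whereas Map2 and Nefl show little difference between the ctrl libraries.

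These 5 genes, Gad1, Syt1, Snap25, Stmn2 and Rbfox3, were at least 4-fold lower in ctrl replicate 1 than in each of the other 3 libraries. Of all 14324 genes with a mean normalised read count of at least 20, 161 met this description (1.12%), and 262 were at least 4-fold lower in ctrl replicate 1 than in ctrl replicate 2 (1.83%), among them the same 5 members. None of the 10 members was 4-fold apart between the Zfp276cko libraries. This set of 5 was picked with the values in view, so their difference is a description without a test. Summed, they gave 7.94 CPM (counts scaled to library size) in ctrl replicate 1, 167.0 in ctrl replicate 2, 83.5 in Zfp276cko replicate 1 and 89.8 in Zfp276cko replicate 2. In such bulk samples fewer neurons and less neuronal RNA per cell cannot be told apart.

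The composition of this sum varied less than its size. Gad1 held 41.8% of the 158 reads in ctrl replicate 1 (95% exact binomial interval 34.0 to 49.9%), 50.7% of 3508 reads in ctrl replicate 2 (49.0 to 52.4%), 46.6% of 2181 reads in Zfp276cko replicate 1 and 47.2% of 2472 reads in Zfp276cko replicate 2. The interval of ctrl replicate 1 includes the shares of both Zfp276cko libraries and overlaps that of ctrl replicate 2. Syt1 held 17.7% (12.1 to 24.6%) in ctrl replicate 1 and 22.2% (20.8 to 23.6%) in ctrl replicate 2, against 17.3% (15.8 to 19.0%) and 16.5% (15.1 to 18.1%) in the Zfp276cko libraries. ctrl replicate 2 thus had a larger Syt1 share than the Zfp276cko libraries beyond counting error. Its Stmn2 share was the smallest, 9.89% (8.92 to 10.9%) against 15.5% (14.1 to 17.1%) and 14.2% (12.9 to 15.7%) in Zfp276cko cells. Rbfox3 made up 4.99 to 7.59% in the 4 libraries.

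**Figure D2:**
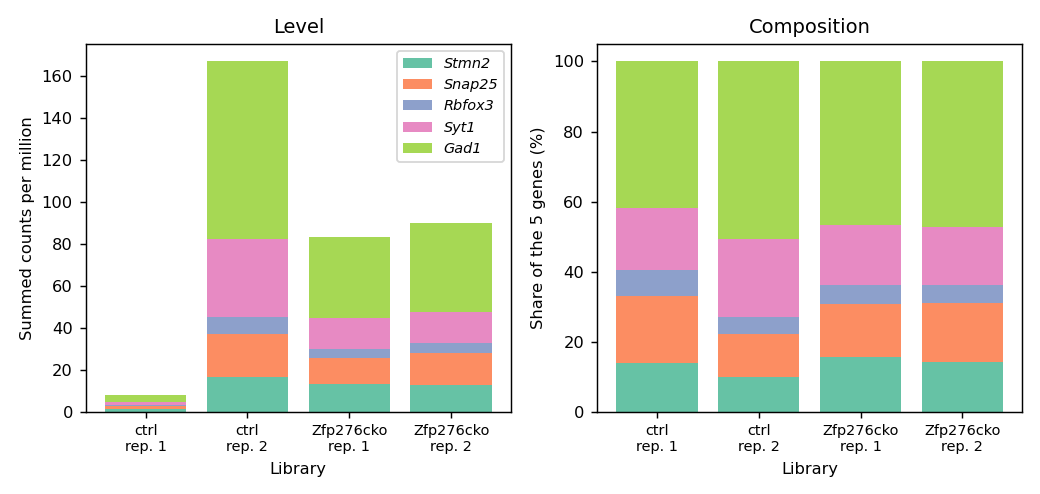
Summed CPM of Stmn2, Snap25, Rbfox3, Syt1 and Gad1 in each library (left) and the share of each gene in the reads of the 5 genes, in percent (right). The bar of ctrl replicate 1 reaches 7.94 CPM and that of ctrl replicate 2 reaches 167.0, while Gad1 takes 41.8 to 50.7% of the reads in every library.

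Map2, Nefl and Nefm did not separate the ctrl preparations. Map2, a dendritic microtubule-associated protein (chromosome 1, 66175273 to 66442583, plus strand), was the most counted member, with normalised read counts of 14610 and 18850 in ctrl compared with 11610 and 13100 in Zfp276cko cells. The Zfp276cko libraries were the lower ones, with means of 16730 ± 2999 in ctrl and 12360 ± 1059 in Zfp276cko cells, and the difference did not pass the test (log2 fold change -0.44 ± 0.17 SE, adjusted p = 0.350 by edgeR). The ctrl libraries differed only 1.29-fold. Map2 therefore did not follow the 5 genes that were scarce in ctrl replicate 1.

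Promoter sequences of members that set ctrl replicate 1 apart are shown with that of Map2, which did not, so that the regions upstream of these genes can be compared. The RefSeq promoter table (GRCm38.p6) holds 8 windows of 6 members. Printed 5′ to 3′ on the strand of the gene are the 250 bases before a RefSeq start of Gad1 (chr2:70561879-70562128, plus strand), Syt1 (chr10:109010976-109011225, minus strand) and Map2 (chr1:66175079-66175328, plus strand), with CG dinucleotides in capitals. The windows refer to starts of RefSeq transcripts, and those of Gad1 and Rbfox3 lie inside the longer gene spans of the GENCODE annotation given here.
Gad1: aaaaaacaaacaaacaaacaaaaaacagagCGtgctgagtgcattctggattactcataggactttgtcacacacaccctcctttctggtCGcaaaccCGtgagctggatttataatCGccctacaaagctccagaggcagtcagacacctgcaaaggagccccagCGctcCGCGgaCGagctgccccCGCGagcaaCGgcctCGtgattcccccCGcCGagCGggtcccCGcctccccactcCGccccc
Syt1: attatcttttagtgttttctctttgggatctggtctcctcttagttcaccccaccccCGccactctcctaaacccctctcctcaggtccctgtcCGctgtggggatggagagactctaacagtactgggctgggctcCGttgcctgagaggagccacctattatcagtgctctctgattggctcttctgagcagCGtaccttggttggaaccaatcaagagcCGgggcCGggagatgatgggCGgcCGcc
Map2: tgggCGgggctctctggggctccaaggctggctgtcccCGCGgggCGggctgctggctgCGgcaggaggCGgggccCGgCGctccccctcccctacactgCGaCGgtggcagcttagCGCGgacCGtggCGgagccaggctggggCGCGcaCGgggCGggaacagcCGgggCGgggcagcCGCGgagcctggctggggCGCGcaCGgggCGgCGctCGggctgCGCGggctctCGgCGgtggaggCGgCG
Map2 has 34 CG dinucleotides and a GC content of 81.2% in this stretch, Gad1 17 and 58.0%, and Syt1 8 and 56.4%. The window before the RefSeq start of Rbfox3 (chr11:118761042-118761291, minus strand), which also set ctrl replicate 1 apart, holds 3 and that of Tubb3 (chr8:123411303-123411552, plus strand) 21 CG dinucleotides. Among the genes that were scarce in ctrl replicate 1, the windows of Gad1, Syt1 and Rbfox3 thus held 3 to 17 CG dinucleotides. The other Syt1 window held 5. Both windows of Dcx, which was less than 4-fold lower in ctrl replicate 1, held 3 each. A low number was thus not particular to the scarce genes. Snap25 and Stmn2 had no promoter window.

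Many neuronal genes carry the RE1 element, to which Rest, a repressor of neuronal genes outside neurons, is known to bind. Its left part TTCAGCACC and its right part GGACAGC were searched on both strands of windows of 250 bases before to 50 bases after the start. The left part was in 0 of the 8 windows of members and in 122 of all 32851 windows (0.371%). The right part was in 2 of the 8 windows and in 2155 of all windows (6.56%), namely in Map2 at position 31 and in Tubb3 at position 262, past the start of the gene, each on the opposite strand and counted from 1 at the 5′ end of the window. Such matches describe letters in a window and not binding. Rest itself had normalised read counts of 1175 and 1042 in ctrl against 1152 and 1327 in Zfp276cko cells. It did not pass the test (log2 fold change 0.16, adjusted p = 0.593 by edgeR).

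Tubb3, the neuronal class of beta-tubulin (chromosome 8, 123411424 to 123422015, plus strand), had 1059 and 2137 normalised read counts in ctrl versus 2003 and 1782 in Zfp276cko cells. Dcx, a microtubule-binding protein of migrating neuroblasts (chromosome X, 143855842 to 143933311, minus strand), had 2097 and 6014 in ctrl against 6529 and 7284 in Zfp276cko cells. In both genes ctrl replicate 1 was again the lowest library, by a smaller factor: ctrl replicate 2 exceeded it 2.02-fold for Tubb3 and 2.87-fold for Dcx. Dcx was the only member that both Zfp276cko libraries held at a higher level than either ctrl library, and its means of 4055 ± 2770 and 6907 ± 533 overlapped within their SD (log2 fold change 0.77 ± 0.52 SE, adjusted p = 0.540 by edgeR).

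The neurofilament subunits Nefl (chromosome 14, 68083863 to 68089095, plus strand) and Nefm (chromosome 14, 68082590 to 68124846, minus strand) were low in all libraries. Normalised read counts of Nefl were 41.6 and 43.9 in ctrl compared with 24.4 and 32.7 in Zfp276cko cells, those of Nefm 65.3 and 88.9 in ctrl versus 57.9 and 70.4 in Zfp276cko cells. Neither gene set ctrl replicate 1 apart, with ratios within ctrl of 1.06 and 1.36. Nefl, with 27 to 39 reads per library, did not pass the test (log2 fold change -0.58 ± 0.31 SE, adjusted p = 0.453 by edgeR). Their exons overlap over 1108 nt on opposite strands in the GENCODE annotation, which is 32.8% of the exon length of Nefl and 19.2% of that of Nefm. As the strand setting of the counting is not given in the sources used here, reads of this stretch cannot be assigned with certainty.

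Levels of different genes were compared per exon length, as RPKM (reads scaled to exon length in kilobases and to library size). Map2, Tubb3 and Dcx were the 3 highest members in every library, with 29.9 to 48.5 RPKM for Map2, 24.0 to 48.4 for Tubb3 and 7.01 to 24.4 for Dcx. Map2 and Tubb3 were nearly level in ctrl replicate 2, at 48.5 and 48.4 RPKM, and Tubb3 was ahead in both Zfp276cko libraries. Gad1 followed at 11.1 RPKM in ctrl replicate 2 and 5.10 and 5.55 RPKM in Zfp276cko cells. It had only 0.434 RPKM in ctrl replicate 1, where it ranked below Nefl (0.520 RPKM) and Nefm (0.478 RPKM), the lowest members in each of the other libraries. Syt1, Snap25 and Stmn2 lay between 1.74 and 4.44 RPKM outside ctrl replicate 1, in changing order, and Rbfox3 between 0.770 and 1.43 RPKM.

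Between the genotypes, none of the 10 members was called. Genes were called at an adjusted p up to 0.05 if they differed by 0.6 or more on the log2 scale and had a mean normalised read count of 20 or more, and all 10 members were among the 15766 genes kept for testing. The quasi-likelihood test of edgeR called 0 of these genes (0%), Zfp276 included, the smallest adjusted p being 0.0725. With the unadjusted p it counted 1282 genes (8.13%) and 0 members. DESeq2 called 787 of 14879 genes (5.29%) and 0 members. Both Zfp276cko libraries were above both ctrl libraries in 1 of 10 members, Dcx, against 26.4% of the genes with a mean of at least 20, and below them in 2 of 10, Map2 and Nefl, against 24.8%. The groups overlapped for the other 7 members. With 2 libraries in each group an exact permutation test of a single gene cannot go below p = 0.333.

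The estimates were wide where the ctrl libraries were apart. The log2 fold change was -0.11 ± 1.34 SE for Gad1 (adjusted p = 0.977), -0.39 ± 1.35 for Syt1 (0.917), 0.33 ± 1.13 for Snap25 (0.916), 0.55 ± 1.16 for Stmn2 (0.858) and 0.03 ± 1.13 for Rbfox3 (0.994), all by edgeR. Each of these standard errors was larger than the estimate itself. Tubb3 had a smaller error (0.24 ± 0.36, adjusted p = 0.787 by edgeR), as did Nefm (-0.26 ± 0.30, adjusted p = 0.719 by edgeR). The median log2 fold change of the 10 members was -0.043, and that of all tested genes was -0.0013.

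The direction of the difference depended on the ctrl library that was compared with the Zfp276cko cells. Without ctrl replicate 1, edgeR called 4 members lower in Zfp276cko cells, against 5.76% of all genes. They were Map2 (log2 fold change -0.61), Rbfox3 (-0.87), Syt1 (-1.33) and Gad1 (-1.06). Without ctrl replicate 2, it called 7 members higher, against 10.8% of all genes. They were Tubb3 (0.82), Dcx (1.71), Rbfox3 (2.90), Snap25 (3.19), Syt1 (3.36), Stmn2 (3.52) and Gad1 (3.60). Rbfox3, Syt1 and Gad1 were thus called in opposite directions by the choice of ctrl library. Both fits share the Zfp276cko libraries, and the remaining ctrl library is assumed to vary as the Zfp276cko libraries do. The median of the members moved to -0.58 and 2.30, while that of all tested genes was 0.012 and 0.015. The sign differed between both fits for 6 members. Of the remaining ones, Nefl was at -0.61 without ctrl replicate 1 and -0.55 without ctrl replicate 2, Nefm at -0.47 and -0.04, Map2 at -0.61 and -0.26, and Dcx at 0.20 and 1.71.

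**Figure D3:**
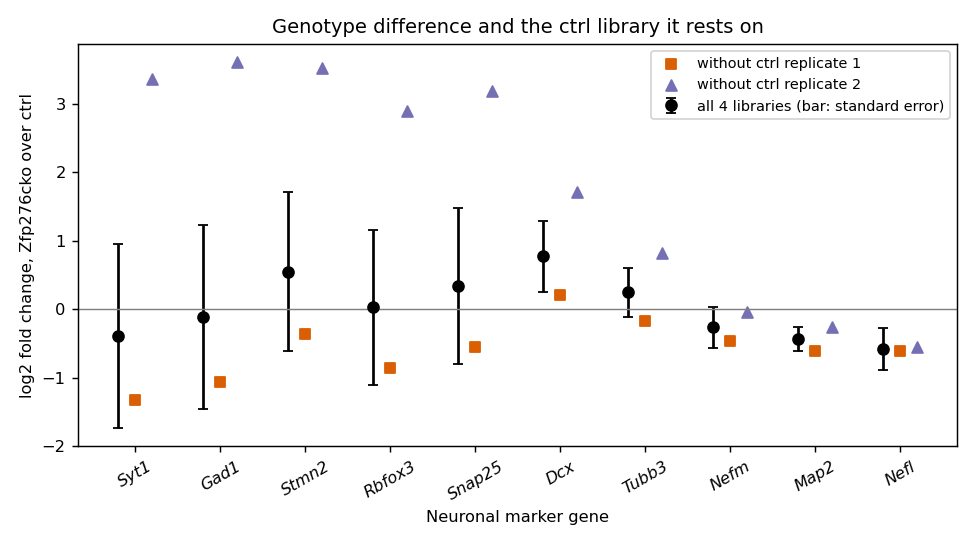
Log2 fold change of Zfp276cko over ctrl for the 10 neuronal marker genes with all 4 libraries (circles, bars are standard errors), without ctrl replicate 1 (squares) and without ctrl replicate 2 (triangles). Gad1 is at -0.11 with all libraries, at -1.06 without ctrl replicate 1 and at 3.60 without ctrl replicate 2, whereas Nefl, Nefm and Map2 stay below 0.

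A summed level hides this behaviour, as Map2 supplies most of the reads. The 10 members gave 764.2 and 1315 CPM in ctrl compared with 939.0 and 1032 CPM in Zfp276cko cells, with means of 1040 ± 390 and 986 ± 65.8. Without Map2 the sums were 146.0 and 517.5 CPM in ctrl versus 448.0 and 477.8 CPM in Zfp276cko cells. The log2 ratio of the group means was -0.08 with Map2 and 0.48 without it.

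Genes outside the panel were examined by 6 further neuronal lists with 123 genes in all. Of their 101 genes with a mean of at least 20, 20 (19.8%) were at least 4-fold lower in ctrl replicate 1 than in each other library, beside the 1.12% of all genes given above. Of the 57 such genes on 5 lists for other cell types, 0 were. All these lists were chosen with earlier results of these data known, so the shares are a description without a test. Together with the 5 members, genes of the neuronal lists made up 25 of the 161 genes with this pattern (15.5%). Of the 103 tested genes of the neuronal lists, edgeR called 0, with 9 at an unadjusted p against 8.13% of all genes, and DESeq2 called 5 against 5.29% of all genes. These shares are near those of all genes. Of the genes of these lists named for their scarcity in ctrl replicate 1, all but Gad2 and Nrsn1 were chosen after their values were seen.

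The inhibitory and the neuroblast list held further genes that, like Gad1, were scarce in ctrl replicate 1. The order of the other libraries was not always that of Gad1: for Calb2 and Sst, ctrl replicate 2 was not the highest library. Of 10 inhibitory genes with a mean of at least 20, 5 were scarce in ctrl replicate 1 by this measure, among them Gad2, Slc32a1, Calb2 and Sst. Gad2, the other GABA-synthesising enzyme, had 35 and 351 counts in ctrl against 284 and 285 in Zfp276cko cells. Slc32a1, the vesicular GABA transporter, had 1 count in ctrl replicate 1 against 363, 195 and 202 in ctrl replicate 2 and Zfp276cko replicates 1 and 2. Sst, which encodes the neuropeptide somatostatin, was at 0 counts in ctrl replicate 1 (which allows for up to 3 counts) and had 87, 128 and 114 counts in the other libraries. Abat, which breaks GABA down, had normalised read counts of 8383 and 11560 in ctrl compared with 6042 and 6240 in Zfp276cko cells. It was called lower by DESeq2 (adjusted p = 0.0239) and not by edgeR (log2 fold change -0.70 ± 0.19 SE, adjusted p = 0.226). Pvalb (log2 fold change -0.97) and Npy (0.67) did not pass the test (adjusted p = 0.329 and 0.353 by edgeR).

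Of 18 neuroblast and newborn neuron genes, 7 were scarce in ctrl replicate 1, and all 7 are transcripts of the Dlx and Sp8/Sp9 group, known from forebrain precursors of inhibitory neurons. Neurod4 was at 0 counts in all libraries. Dlx1 had 9 counts in ctrl replicate 1 and 1058, 795 and 921 in ctrl replicate 2 and the Zfp276cko replicates. Sp8 had 1 count and then 228, 175 and 219. Sox4, a factor of newborn neurons, had 9910 and 12461 counts in ctrl against 19234 and 25388 in Zfp276cko cells, without passing the test (log2 fold change 0.60 ± 0.18 SE, adjusted p = 0.251 by edgeR). It was abundant in ctrl replicate 1 as well, at 497.8 CPM, and from which cells its transcripts came was not tested. Dcdc2a (log2 fold change -0.78, adjusted p = 0.207 by edgeR) and Nrep (0.30, adjusted p = 0.315 by edgeR) did not pass either.

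The excitatory neuron list was low in sum. Of its 16 listed genes, 9 had a mean of at least 20, and the list summed to 110.4 and 195.4 CPM in ctrl compared with 123.5 and 129.7 CPM in Zfp276cko cells. The vesicular glutamate transporters Slc17a6 (0 and 8 counts in ctrl, 15 and 16 in Zfp276cko cells) and Slc17a7 (5 and 2 counts in ctrl, 9 and 8 in Zfp276cko cells) were close to 0 in every library. Grin2b, a glutamate receptor subunit, was the 1 gene of the list that was scarce in ctrl replicate 1, with 15 counts against 613, 277 and 310. Nrgn, a calmodulin-binding protein, was called higher by DESeq2 (adjusted p = 0.00396) and not by edgeR (log2 fold change 3.18 ± 0.52 SE, adjusted p = 0.139). Its counts were 3 and 7 in ctrl versus 47 and 74 in Zfp276cko cells, and both ctrl libraries were low. Camk2b, Cux2 and the glutamate receptor subunit Grin1 did not pass the test by either tool, with log2 fold changes of -0.37, -0.33 and -0.85.

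The cytoskeletal and axonal list held no gene that set ctrl replicate 1 apart in this way. Of its 21 genes with a mean of at least 20, 0 were 4-fold lower in ctrl replicate 1 than in each other library, and both Zfp276cko libraries were below both ctrl libraries in 7 and above them in 3, against 24.8% and 26.4% of all genes. DESeq2, which called 5.29% of all genes in either direction, called 3 of these genes lower, namely Map1a (log2 fold change by edgeR -0.90 ± 0.14 SE, adjusted p = 0.134 by edgeR and 1.16e-05 by DESeq2), Map1b (-0.72, adjusted p = 0.183 by edgeR and 0.00116 by DESeq2) and Tuba1a (-0.76, adjusted p = 0.211 by edgeR and 0.00718 by DESeq2). Like Map2, Map1a and Map1b encode microtubule-associated proteins. In ctrl replicate 1, where the 5 scarce members summed to 7.94 CPM, Map1a, Map1b and Tuba1a had 645.3, 1381 and 3248 CPM. From which cells these transcripts came was not tested. Map1a had 12846 and 16408 counts in ctrl against 9889 and 10682 in Zfp276cko cells. Dpysl2 was at -0.46 and was called by neither tool. Leaving out ctrl replicate 1 gave -1.03 for Map1a, and leaving out ctrl replicate 2 gave -0.76.

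Of 23 synaptic vesicle and release genes, 1, the synaptotagmin Syt5, was scarce in ctrl replicate 1, with 12 counts against 177, 135 and 147. Both Zfp276cko libraries were below both ctrl libraries in 8 of them and above in 0, against 24.8% and 26.4% of all genes. Pclo, Syt11, Sv2a and Snap91 had log2 fold changes of -0.51, -0.48, -0.40 and -0.33 and did not pass the rule with edgeR or DESeq2. Of 20 RNA-binding and nuclear factors, 6 were scarce in ctrl replicate 1: Scrt1, Scrt2, Celf3, Celf4, Myt1l and Nrsn1. Nrsn1 had 3 and 35 counts in ctrl compared with 68 and 73 in Zfp276cko cells. Elavl3, a neuronal RNA-binding protein, had normalised read counts of 5483 and 8084 in ctrl versus 4205 and 4343 in Zfp276cko cells. It differed only 1.47-fold within ctrl. Elavl2 (log2 fold change 0.81) and Rbfox1 (0.67) did not pass the test (adjusted p = 0.401 and 0.293 by edgeR), and for both genes the Zfp276cko libraries were above both ctrl libraries.

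**Figure D4:**
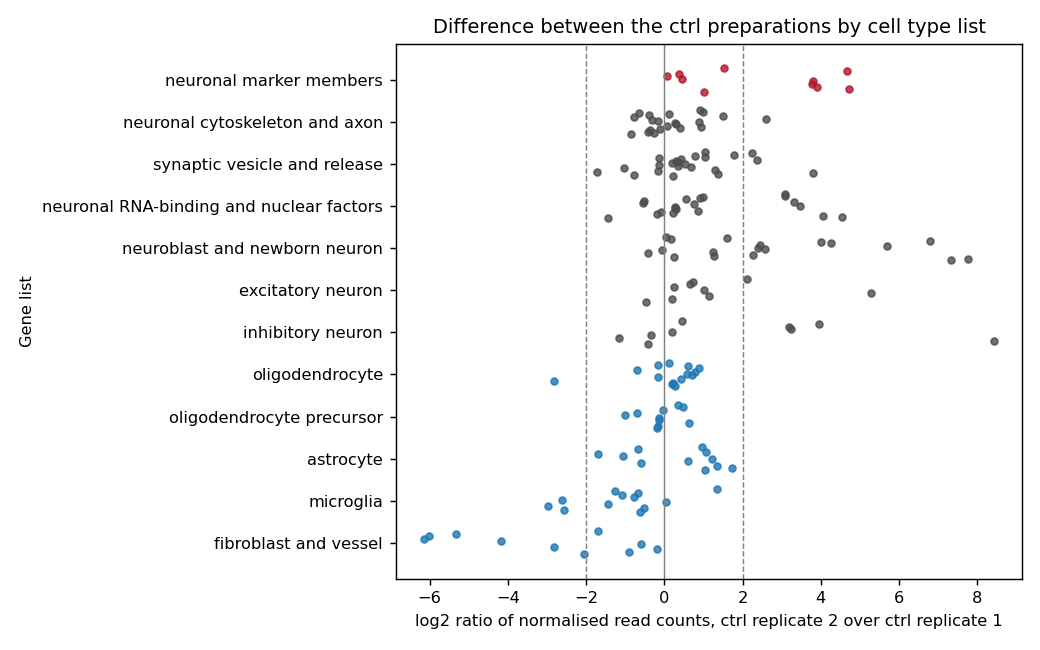
Log2 ratio of normalised read counts of ctrl replicate 2 over ctrl replicate 1 for each gene with a mean of at least 20, by gene list, with dashed lines at a 4-fold difference (Sst, at 0 counts in ctrl replicate 1, is not drawn). The neuroblast, RNA-binding and inhibitory lists spread to the right, with 10, 6 and (counting Sst) 5 genes at least 4-fold lower in ctrl replicate 1. Of the synaptic, excitatory and cytoskeletal lists 3, 2 and 1 genes were, beside 1.83% of all genes. The fibroblast and vessel list spreads to the left with 6 genes at least 4-fold higher in ctrl replicate 1.

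The gene whose profile was most like the mean profile of the 10 members was Rab3c, a small GTPase of secretory vesicles that is also on the synaptic list, with normalised read counts of 106.9 and 550.3 in ctrl against 375.5 and 370.3 in Zfp276cko cells. Likeness was the Euclidean distance of centred log2 CPM over the 4 libraries, which was 0.117 for Rab3c. Rapgef4 (0.131), Mmp24 (0.151) and Meis2 (0.154) were also among the 5 closest genes. In each of these 4 genes ctrl replicate 1 was lowest and ctrl replicate 2 highest. The members' mean profile has this order too, so the choice by likeness brought it about.

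Markers of other cell types moved with ctrl replicate 1 in part. Fibroblast and vessel markers summed to 420.4 CPM in ctrl replicate 1 and to 34.1, 27.3 and 23.3 CPM in the other libraries, and 6 of 10 were at least 4-fold higher in ctrl replicate 1 than in ctrl replicate 2. Col1a2 had 2277 counts in ctrl replicate 1 and 37, 55 and 48 in the others, while Cldn5 of endothelial cells was at 0 in all. Microglial markers summed to 2271 and 1148 CPM in ctrl compared with 1651 and 1695 CPM in Zfp276cko cells, with 3 of 12 at least 4-fold higher in ctrl replicate 1 than in ctrl replicate 2. The share of all genes at least 4-fold higher in ctrl replicate 1 was not counted. C1qb had 7222 and 4821 counts in ctrl and C1qc 7352 and 3664. Aif1 of the same list went the other way, with 1051 and 2847 counts, and was picked after its values were seen. The part of these cells in the neuronal difference was not tested.

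Astrocyte markers summed to 1855 to 2095 CPM in the 4 libraries, with Gfap at 14858 and 7521 counts and S100b at 9439 and 15036 counts in ctrl, and with Gjb6 at 0 in all. This sum is set by a few abundant genes. The median ratio of ctrl replicate 2 to ctrl replicate 1 over the astrocyte markers was 1.95, against 0.9998 over all genes with a mean of at least 20. Of 11 astrocyte markers, 6 were lowest in ctrl replicate 1, and the share of all genes lowest there was not counted. Gfap went the other way, and astrocyte markers thus moved with the neuronal ones only in part. Their part in the neuronal difference was not tested. OPC markers summed to 6255 and 5787 CPM in ctrl versus 4603 and 4576 CPM in Zfp276cko cells, with Ptprz1 and Olig1 as the most counted genes. Oligodendrocyte markers gave 22580 and 26260 CPM in ctrl against 13940 and 14240 CPM in Zfp276cko cells, and Mbp was among their most counted genes. DESeq2 called 9 of 14 oligodendrocyte markers and 3 of 10 OPC markers lower, and edgeR called 0 of both lists, with 11 and 3 at an unadjusted p. Of all genes, 5.29% were called by DESeq2 and 8.13% passed at an unadjusted p, in either direction. The labelled cell type was thus present in all preparations. In sum, oligodendrocyte markers were 1.16-fold and the 10 neuronal members 1.72-fold higher in ctrl replicate 2 than in ctrl replicate 1. A sum is set by its most counted genes, and 1 of the 14 oligodendrocyte markers, Opalin, was at least 4-fold higher in ctrl replicate 1, with 1267 counts against 191 (chosen after its values were seen).

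Tubb3 lies 141678 bp from the end of Zfp276, the deleted gene, on the same chromosome. Of 5 genes that start between them, 3 were tested, Fanca, Spire2 and Tcf25, with log2 fold changes of 0.54, 0.81 and -0.20. None of these was called by edgeR or DESeq2, and 0 had an unadjusted p under 0.05, the smallest by edgeR being 0.102 for Fanca. Both Zfp276cko libraries were above both ctrl libraries for Fanca and Spire2 and below them for Tcf25, against 26.4% and 24.8% of all genes. Fanca (123268300 to 123318576, minus strand) overlaps the end of Zfp276 (123254195 to 123269745, plus strand). As the strand setting of the counting is not given, reads of this stretch cannot be assigned with certainty.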

How the data were processed

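RNA-Seq reads of 4 libraries, 2 per genotype, were mapped to mm10 with STAR 2.5.4a according to the submitters' processing notes, which name featureCounts 1.5.1, whereas the study's methods name HTSeq for counting. The authors deposited raw counts per gene symbol, neither normalised nor filtered, and the strand setting of the counting is not given in the sources used here. The members and gene lists were chosen with earlier results of these data known.

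Genes were kept with filterByExpr of edgeR 4.0.16 (R 4.3.3), which left 15766 of 53465 genes, and normalised with TMM. Genotypes were compared with the quasi-likelihood test of edgeR and Benjamini-Hochberg adjustment over all tested genes, without covariates. DESeq2 1.42.0 was an alternative, besides its size factors, other filters, a replicate block, an unadjusted p and the leaving out of each library. Scripts were tested on simulated data. Genes were called at an adjusted p up to 0.05 if they differed by 0.6 or more on the log2 scale and had a mean of 20 or more. Counting intervals (exact, 95%) cover counting error only.

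All members were named. Of each other neuronal list the 4 genes with the smallest unadjusted edgeR p were named, with Rest, Gad2, Slc17a6, Slc17a7 and Elavl3, and of the lists of other cell types the 2 most counted genes. The 5 genes closest in profile to the members were named as well. Some genes that these rules cover are not reported here. Positions and exon lengths came from the GENCODE annotation of mm10, promoter windows from RefSeq on GRCm38.p6. Ratios between libraries used genes with a mean of at least 20.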

Additional observations from a re-analysis of the deposited data

How the results depend on the processing

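The counts of called members were 0 in both directions with the size factors of DESeq2, with no filter on low counts, with at least 10 counts in every library, with DESeq2 and with an unadjusted p. Leaving out 1 library gave 0 to 4 members lower and 0 to 7 higher, with 4 lower when ctrl replicate 1 was left out, 7 higher when ctrl replicate 2 was left out, and 0 without either Zfp276cko library. Over all genes, 0 were called lower and 0 higher, against 338 and 449 with DESeq2, 476 and 806 with an unadjusted p, 0 and 8 with no filter, and 0 to 1286 and 0 to 1792 when 1 library was left out (952 and 1689 for ctrl replicate 1, 1286 and 1792 for ctrl replicate 2). The median log2 fold change of the members, -0.043, ranged from -0.58 to 2.30 when 1 library was left out. The log2 ratio of the summed CPM, -0.077, ranged from -0.416 to 0.367 when 1 library was left out, and was 0.48 without Map2 and 0.62 with equal weight for each member. Signs turned without ctrl replicate 1 for Tubb3 (-0.17), Stmn2 (-0.36), Snap25 (-0.56) and Rbfox3 (-0.87), and without ctrl replicate 2 for Syt1 (3.36) and Gad1 (3.60). The fits without the other ctrl library gave 0.82, 3.52, 3.19 and 2.90 for Tubb3, Stmn2, Snap25 and Rbfox3, and -1.33 and -1.06 for Syt1 and Gad1. In these 6 genes both Zfp276cko libraries lay between ctrl replicate 1 and ctrl replicate 2, so the sign depended on the ctrl library that was kept. These fits hold 1 ctrl library, with a spread taken from the Zfp276cko libraries. What set the ctrl libraries apart was not tested.

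The replicate numbers are not stated to pair the libraries, and deviations of libraries with the same number had a correlation of -0.00502 over 15766 genes. With the replicate number as a block, 0 genes and 0 members were called in either direction. Under the block the median log2 fold change of the members was 0.837, and Syt1 (0.83) and Gad1 (1.11) changed sign.

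At 12 to 66 reads each in ctrl replicate 1, the values of Rbfox3, Stmn2, Syt1, Snap25 and Gad1 are limited by counting as well as by the number of preparations.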
